A study of Mus musculus with 10 samples.

Results

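The proteasome is the protease that degrades proteins marked with ubiquitin. This account describes the open chromatin and the H3K4me3 mark at the promoters of its subunit genes in neural stem and progenitor cells (NSPCs). The genes were chosen by symbol as protein-coding autosomal genes whose name starts with Psma, Psmb, Psmc, Psmd, Psme, Psmf or Psmg followed by a digit. The rule gave 49 of 20807 protein-coding autosomal genes of the GENCODE M21 annotation of mm10.

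NSPCs were primary cells isolated from C57BL/6 mouse brains at postnatal day 5 and grown in Neurobasal A with B27. Activated NSPCs were kept in 20 ng/ml each of FGF2 and EGF. Quiescent NSPCs received 20 ng/ml FGF2 and 25 ng/ml BMP4, a signal that takes these cells out of the cell cycle, without EGF for 4 days per the labels, whereas the methods give a shorter time before ATAC-seq. Reactivated NSPCs spent 4 days with BMP4 and were then returned to the growth medium for 9 to 12 days. ATAC-seq, in which the Tn5 transposase marks accessible DNA, was available as 2 libraries for each of the 3 states, which the methods call biologically independent for quiescent and activated NSPCs. H3K4me3, a histone mark of active promoters, was available as 1 library each for quiescent and activated NSPCs. These cultures are mixtures of stem and progenitor cells, and no gene was altered in any group.

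The core of the proteasome is a barrel of stacked rings. The outer rings are built from α subunits that gate the entrance, and the inner rings from β subunits, of which a few cut proteins. A regulatory cap of ATPase and non-ATPase subunits binds ubiquitin, unfolds the substrate and feeds it into the barrel. Interferon-induced β subunits and the PA28 activator make up the immunoproteasome, and dedicated chaperones assemble the particle. Protein degradation is known to differ between quiescent and activated neural stem cells.

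The deposited lists held 47323 to 60881 ATAC-seq peaks in the quiescent and activated libraries and 106586 and 107137 in the reactivated ones. A promoter peak was a peak that touched the 1 kb on either side of any transcription start site (TSS) of a gene, and its height was the fold enrichment that the authors' peak caller gave over the local background of the same library. The median over the 11331 genes with a promoter peak in all 6 libraries rose by 0.66 on the log2 scale from quiescent to reactivated NSPCs, by 0.50 from activated to reactivated NSPCs and by 0.16 from quiescent to activated NSPCs. Heights are therefore compared relative to the median of these genes in the same library, called the median promoter, which has the value 1. Where fold enrichment itself is given, this shift between libraries is not removed. Of 6 markers of neural stem and progenitor cells, 5 had a promoter peak in all 6 libraries and Slc1a3 had one in 4. No library had a peak at the blood marker Ptprc, the liver marker Alb or the muscle marker Acta1, and 3 libraries had one at the muscle marker Myod1.

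The promoters of nearly all proteasome genes were open in every library. An ATAC-seq promoter peak was called in all 6 libraries at 46 of the 49 genes, or 93.9%, against 54.5% of all protein-coding autosomal genes. The 3 others had a peak in no library, and none had a peak in only some libraries, against 30.0% and 15.5% of all genes. The same 46 genes carried an H3K4me3 peak in both states, against 61.0% of all genes (62.3% in quiescent and 61.1% in activated NSPCs), and the same 3 carried none, against 37.5%. Both marks together were thus found at 46 of 49 genes and at 53.0% of all genes.

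The 3 genes without a peak are relatives of subunits with known tissue-restricted use or a copy of one. One is Psma8, the testis α subunit. Psmb11, the β5t subunit of thymic epithelium, lies at chr14:54621433-54629556. Psme2b, an intron-poor copy of the activator gene Psme2, lies at chr11:48945354-48946190 (mm10, all coordinates 1-based). A list without a peak shows only that none passed the caller's threshold at the depth of that library.

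To show the DNA that was open, the 100 bases before the outermost TSS are given for 6 of the 9 genes whose peak height was called different between states, without Psma2, Psme1 and Psmc3ip, and for closed Psmb11. Sequences are from GRCm38.p6, the build of mm10, on the strand of the gene. Capitals mark CpG dinucleotides.
Psmd1 (chr1:86064287-86064386, + strand): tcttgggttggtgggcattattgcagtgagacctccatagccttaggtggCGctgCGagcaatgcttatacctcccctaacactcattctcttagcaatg
Psmc6 (chr14:45329688-45329787, + strand): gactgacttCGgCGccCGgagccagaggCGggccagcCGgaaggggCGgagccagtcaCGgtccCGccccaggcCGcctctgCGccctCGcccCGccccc
Psmb1 (chr17:15499752-15499851, - strand): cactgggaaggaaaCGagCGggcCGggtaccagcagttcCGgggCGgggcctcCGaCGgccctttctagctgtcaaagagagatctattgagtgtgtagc
Psmb2 (chr4:126677530-126677629, + strand): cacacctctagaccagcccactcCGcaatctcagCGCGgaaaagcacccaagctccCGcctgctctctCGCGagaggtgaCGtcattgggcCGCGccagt
Psmb4 (chr3:94886962-94887061, - strand): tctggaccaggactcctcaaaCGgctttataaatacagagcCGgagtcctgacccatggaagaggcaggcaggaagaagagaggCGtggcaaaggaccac
Psmb8 (chr17:34197621-34197720, + strand): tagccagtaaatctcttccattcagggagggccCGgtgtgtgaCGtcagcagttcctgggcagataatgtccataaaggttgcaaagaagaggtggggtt
Psmb11 (chr14:54621333-54621432, + strand): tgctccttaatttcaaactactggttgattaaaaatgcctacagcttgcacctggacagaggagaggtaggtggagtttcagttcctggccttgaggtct

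The stretch of Psmc6 held 12 CpG dinucleotides, that of Psmb2 held 9 and that of Psmb1 held 7. That of Psmb4 held 3, those of Psmd1 and Psmb8 held 2 each, and that of closed Psmb11 held 0. The RefSeq start of Psmb11 is at chr14:54625310, farther inside the gene, so the stretch shown need not be its promoter.

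Promoter sequences of RefSeq on GRCm38.p6, from 250 bases before to 50 after a start, were found for 41 of the 49 genes. For a gene with several RefSeq starts, as Psma6, Psmc2 and Psme2 have, the highest CpG ratio and a motif at any start were counted, for all genes alike. The ratio of observed to expected CpG had a median of 0.763 over these genes and 0.644 over all 15687 coding autosomal genes in the table. It was below 0.25 at Psmb11, Psme2b and Psmb10, as it was at 24.3% of all genes, and the RefSeq start of Psmb10 lies 1298 bp upstream of its ATAC-seq summit. The ETS core CCGGAAG, the sequence read by ETS factors, was present on either strand in 15 of 41 genes, or 36.6%, against 13.6% of all genes. The antioxidant response element core TGACNNNGC, read by the proteasome regulators Nfe2l1 and Nfe2l2, was present in 6 of 41, or 14.6%, against 15.1%. The CCAAT box (CCAAT) was present in 14 genes (41.7% of all genes), at Psma6 before the outer start and not the one at its ATAC-seq peak, the NRF1 core GCATGCGC in 3 (4.14%) and the TATA box TATAAA in 4 (14.4%), all on either strand. Motifs were counted one by one, so matches of different motifs may overlap, and a match is a description of the letters alone.

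A pair of matches each is shown for the ETS core and the antioxidant response element, in the 60 bases before the RefSeq start, because these motifs are tied to housekeeping promoters and to proteasome genes. Capitals mark the motif, which reads CTTCCGG where the ETS core lies on the other strand.
Psmd2 (chr16:20651592-20651651, + strand): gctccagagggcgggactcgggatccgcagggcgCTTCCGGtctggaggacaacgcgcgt
Psmd11 (chr11:80428555-80428614, + strand): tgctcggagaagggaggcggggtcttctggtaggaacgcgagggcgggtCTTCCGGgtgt
Psmb6 (chr11:70525297-70525356, + strand): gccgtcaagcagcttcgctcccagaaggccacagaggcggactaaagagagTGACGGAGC
Psmd9 (chr5:123228130-123228189, + strand): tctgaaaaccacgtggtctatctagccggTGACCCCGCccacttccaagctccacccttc

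The ATAC-seq summit lay close to the TSS. At 44 of 46 open genes the median summit over libraries was within 200 bp of the nearest own TSS, and at 39 it was upstream, with a median of -28.75 bp. In 39 of 46 genes the summits of all 6 libraries fell within 100 bp of each other. The spread exceeded 300 bp at Psmb1, Psmd1, Psmd13 and Psme3, where the highest of several promoter peaks was not the same peak in every library. A coding gene on the other strand started within 1 kb at 12 of 49 genes (24.5%), against 12.7% of all genes, and includes Mrpl32 beside Psma2, Tbp beside Psmb1 and the serotonin receptor gene Htr2b beside Psmd1, so that a peak there cannot be given to 1 gene.

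Peak height ranged widely among the 46 open genes, from 2.83-fold to 21.2-fold enrichment over the libraries. The 5 highest by mean percentile within the 6 lists were Psma2 (98.9), Psma6 (97.8), Psmc4 (97.2), Psma5 (97.0) and Psmd8 (96.6). The 5 lowest were Psmd9 (45.2), Psmb8 (56.2), Psmb7 (64.3), Psmc1 (64.7) and Psme1 (66.7). The highest thus include 3 α-ring subunits, and the lowest an assembly chaperone, a standard and an interferon-induced catalytic subunit, an ATPase and a PA28 subunit.

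Grouped by role, the α ring had the highest promoter peaks and the catalytic subunits were among the lowest. The median of the mean fold enrichment over the 7 α-ring genes was 9.68 in quiescent NSPCs, 11.9 in activated NSPCs and 17.3 in reactivated NSPCs. Over the 11 non-ATPase subunits of the cap it was 9.24, 10.1 and 13.9. Over the 3 standard catalytic subunits it was 5.68, 6.90 and 9.58, and over the 3 open interferon-induced ones 4.86, 6.38 and 9.47. The 6 ATPases lay between, at 7.46, 8.33 and 11.1, but ranged from 4.78 to 13.05 among themselves in quiescent NSPCs. These values are fold enrichment before centring, so they include the shift of the library median, 0.66 on the log2 scale from quiescent to reactivated NSPCs. After centring, the median difference of reactivated minus quiescent over the 46 genes was -0.07. These are descriptions of small groups, and no difference between roles was tested.

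Psma6, an α-ring subunit, kept a high peak in every state. It stood at 1.54 and 1.57 times the median promoter in quiescent NSPCs, 1.35 and 1.60 in activated NSPCs and 1.54 and 1.68 in reactivated NSPCs, and the states overlapped. Psmd9, a chaperone of cap assembly, had the lowest mean percentile, with heights of 0.455 and 0.458, 0.593 and 0.376, and 0.438 and 0.410 in the same order. Psmd14, the cap subunit that removes ubiquitin from substrates, was picked after its values were seen and stood at 1.002 and 1.12, 1.11 and 1.13, and 1.34 and 1.32. Both reactivated libraries were the highest at Psmd14, and it passed the test in no comparison.

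**Figure D1:**
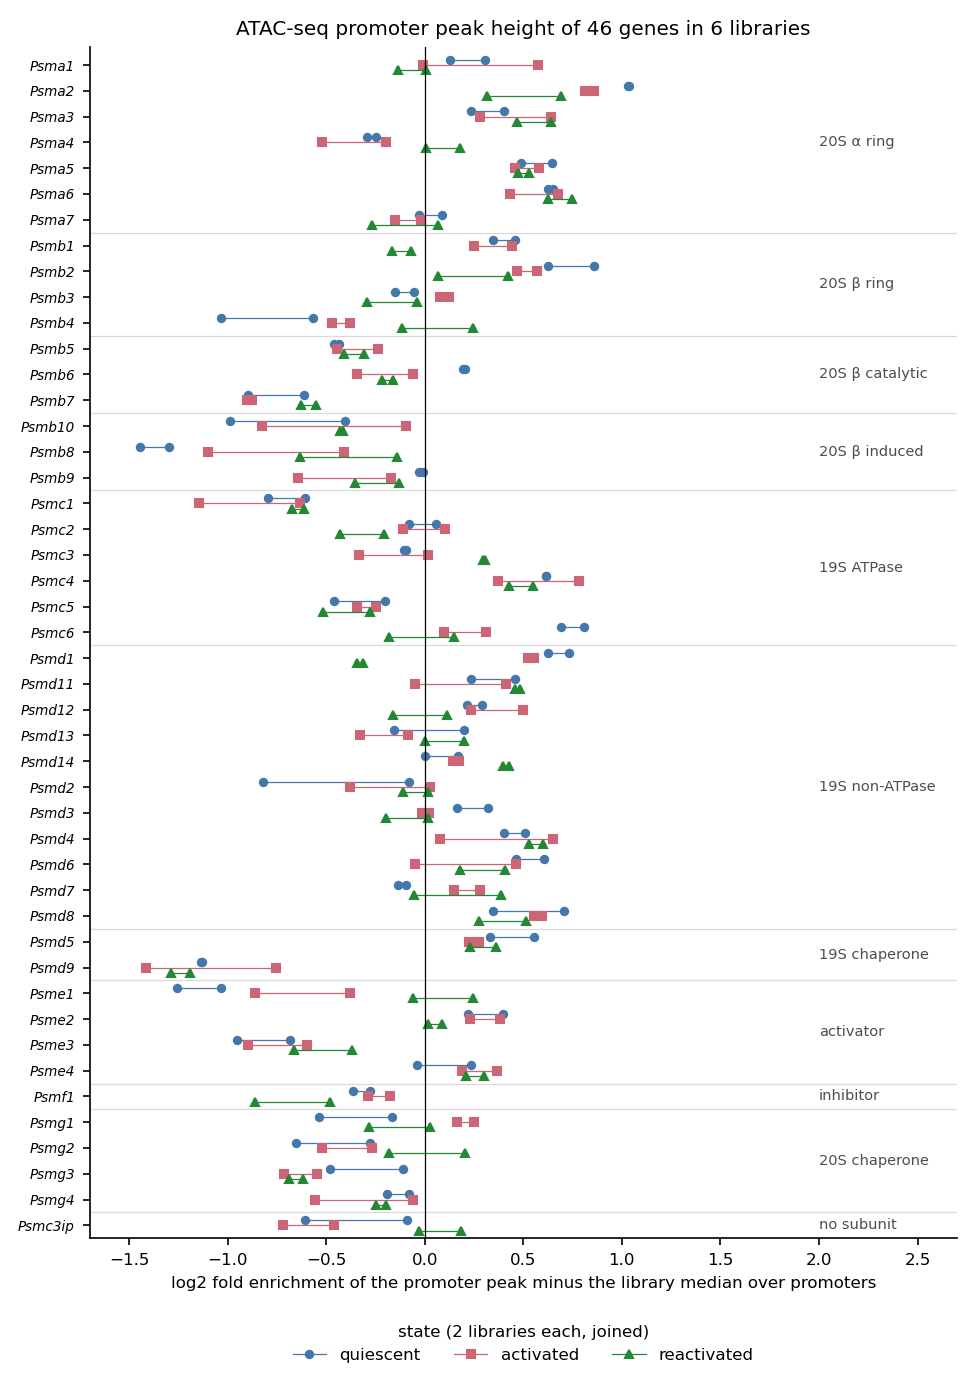
Height of the ATAC-seq promoter peak of the 46 open genes, grouped by role. The x axis is log2 fold enrichment minus the library median over promoters, each point is 1 library, and the 2 libraries of a state are joined. Reactivated NSPCs lie apart from both other states at Psmd1, with 0.805 and 0.788 times the median promoter.

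Between quiescent and activated NSPCs, 1 of the 46 genes with a peak in all libraries passed the test. The test was limma on median-centred log2 fold enrichment over 11331 genes, with an adjusted p below 0.05, and it called 2.74% of all genes, 1.39% as higher and 1.35% as lower in activated NSPCs. The median difference of activated minus quiescent was -0.04 over the proteasome genes, with a range from -0.55 to 0.61.

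Psmc6, an ATPase of the cap, was the gene that passed. Its height was 1.75 and 1.62 times the median promoter in quiescent NSPCs and 1.07 and 1.24 in activated NSPCs. Both activated libraries were below both quiescent ones. The log2 difference was -0.55 (SE 0.14, n = 2 libraries per state, adjusted p = 0.045, limma). With any 1 of the 6 libraries left out, the adjusted p was above 0.05, between 0.058 and 0.195, and it was 0.25 when the pileup was used in place of fold enrichment. A distal site 3771 bp from a Psmc6 TSS (chr14:45325510-45326017) had a fold enrichment of 4.52 and 4.62 in quiescent NSPCs, 8.91 and 8.19 in activated NSPCs and 9.49 and 8.22 in reactivated NSPCs. The quiescent libraries were the lowest there, a difference that was not tested.

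The remaining 45 genes did not pass, and the intervals are wide. The SE of a difference was between 0.12 and 0.25 over the 46 genes. The next lowest p belonged to Psmg1, a chaperone of the core, at 0.690 and 0.891 times the median in quiescent and 1.19 and 1.12 in activated NSPCs. These did not overlap, and the log2 difference of 0.56 (SE 0.17) had an adjusted p of 0.092 by limma.

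The constitutive catalytic subunits, which carry the cutting sites of the standard proteasome, were called in no comparison by fold enrichment. Psmb5 stood at 0.741 and 0.726 times the median in quiescent NSPCs, 0.848 and 0.734 in activated NSPCs and 0.752 and 0.809 in reactivated NSPCs. Psmb6 stood at 1.15 and 1.15, 0.961 and 0.787, and 0.859 and 0.894 in the same order. Psmb7 stood at 0.653 and 0.537, 0.546 and 0.536, and 0.683 and 0.647. At Psmb5 the activated libraries overlapped both other states, while both reactivated libraries were above both quiescent ones. Both quiescent libraries were the highest at Psmb6, with a log2 difference of activated minus quiescent of -0.40 (SE 0.16, adjusted p = 0.179, limma). By pileup, the number of reads at the summit, Psmb6 was lower in reactivated than in quiescent NSPCs, at -0.999 (SE 0.21, adjusted p = 0.0025, limma), while fold enrichment gave -0.39 with an adjusted p of 0.069.

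Between activated and reactivated NSPCs, 4 of the 46 genes passed, 2 higher and 2 lower in reactivated cells, while 17.0% of all genes were called, 8.21% as higher and 8.81% as lower. The median over the proteasome genes was close to 0. Between quiescent and reactivated NSPCs, 8 of 46 passed, 3 higher and 5 lower, while 31.3% of all genes were called, 13.3% as higher and 18.0% as lower. Both comparisons use the reactivated libraries, and their values are given side by side.

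Psmd1, the largest non-ATPase subunit of the cap, showed the largest fall in height. The gene lies at chr1:86064387-86139151 on the + strand. A start of Htr2b on the other strand lies within 1 kb, so the peak cannot be given to Psmd1 alone. The fold enrichment was 13.0 and 11.9 in quiescent NSPCs, 13.8 and 11.5 in activated NSPCs and 9.57 and 9.96 in reactivated NSPCs. Relative to the median promoter, these were 1.66 and 1.54, 1.47 and 1.44, and 0.805 and 0.788. The reactivated libraries were below all others. The log2 difference was -1.01 against quiescent (SE 0.13, adjusted p = 0.00011, limma) and -0.87 against activated NSPCs (SE 0.13, adjusted p = 0.0010, limma).

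The highest peak at Psmd1 was the one at the outermost TSS in 5 of the libraries, with the median summit over all libraries at -27.5 bp. In reactivated replicate 2 it was another, with its summit 19 bp after a TSS farther in. When each merged promoter site was counted once, the difference was -1.05 against quiescent and -0.90 against activated NSPCs. Both calls held with the pileup. With 1 library left out, the difference lay between -1.06 and -0.95 against quiescent NSPCs and between -0.88 and -0.85 against activated NSPCs. In such a refit the state concerned keeps 1 library, and the spread comes from the other states. Among the alternatives, only without centring did the Psmd1 calls miss the threshold, at -0.35 and -0.36 with adjusted p values of 0.069 by limma.

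Psme1, the PA28α subunit of the interferon-induced activator, gained height, whereas Psme2, its PA28β subunit, did not. At Psme2 both reactivated libraries (1.06 and 1.01 times the median promoter) were below both quiescent ones (1.17 and 1.32). This log2 difference of -0.26 (SE 0.14, adjusted p = 0.162, limma) was not called. The Psme1 gene lies at chr14:55578123-55581529 on the + strand. Its summits lay between -9 and 24 bp from a TSS inside the gene's first kilobase. Its height relative to the median promoter was 0.488 and 0.418 in quiescent NSPCs, 0.551 and 0.770 in activated NSPCs and 1.18 and 0.959 in reactivated NSPCs. The 3 states did not overlap. The log2 difference of reactivated minus quiescent was 1.24 (SE 0.21, adjusted p = 0.00062, limma), and the call held under every alternative that could be fitted. With a −log10 q of at least 10 in every library, Psme1 dropped out and was not fitted. Its fold enrichment in quiescent NSPCs was 3.81 and 3.21. Reactivated minus activated was 0.71 (SE 0.21, adjusted p = 0.030, limma), and it was 0.45 with an adjusted p of 0.286 by pileup. This second call was also lost without activated replicate 1 (0.47, adjusted p = 0.178) and without reactivated replicate 1 (0.290) or 2 (0.093).

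A few further genes were called higher in reactivated NSPCs. Psmb8, the interferon-induced β5i subunit, stood at 0.408 and 0.368 in quiescent NSPCs, 0.466 and 0.752 in activated NSPCs and 0.908 and 0.645 in reactivated NSPCs. The log2 difference of reactivated minus quiescent was 0.98 (SE 0.25, adjusted p = 0.0066, limma). Psmb4, a structural β subunit, stood at 0.488 and 0.676 in quiescent NSPCs, 0.721 and 0.770 in activated NSPCs and 1.18 and 0.922 in reactivated NSPCs, a difference of 0.86 (SE 0.20, adjusted p = 0.0046, limma). The reactivated libraries were above the quiescent ones at both genes. Both dropped out with a −log10 q of at least 10 in every library, as Psme1 did, and were not fitted there. By pileup the differences were 0.49 at Psmb8 and 0.41 at Psmb4, with adjusted p values of 0.252 and 0.267. Both calls were also lost without reactivated replicate 1, at 0.74 (adjusted p = 0.131) for Psmb8 and 0.68 (adjusted p = 0.105) for Psmb4.

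The other interferon-induced catalytic subunits did not pass. Psmb9, which lies beside the antigen transporter gene Tap1, stood at 0.979 and 0.995 in quiescent NSPCs, 0.640 and 0.887 in activated NSPCs and 0.781 and 0.912 in reactivated NSPCs. Psmb10 stood at 0.504 and 0.754, 0.563 and 0.937, and 0.742 and 0.750. Among the 3 open induced subunits, only Psmb8 was therefore called in any comparison, and the difference between these genes was not tested.

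Psmc3ip matches the symbol rule but is a partner of recombination enzymes and no subunit. It stood at 0.941 and 0.656 in quiescent NSPCs, 0.727 and 0.608 in activated NSPCs and 0.980 and 1.14 in reactivated NSPCs. Reactivated minus activated was 0.67 (SE 0.20, adjusted p = 0.028, limma), and 0.33 with an adjusted p of 0.396 by pileup. The call was also lost without activated replicate 2 (0.157) and without reactivated replicate 1 (0.116) or 2 (0.234), given as adjusted p.

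The genes called lower in reactivated than in quiescent NSPCs, besides Psmd1, were the cap ATPase Psmc6, the α-ring subunit Psma2 and the structural β subunits Psmb1 and Psmb2. Psmc6 stood at 0.882 and 1.11 in reactivated NSPCs, below the 1.75 and 1.62 of quiescent ones, a log2 difference of -0.77 (SE 0.14, adjusted p = 0.0010, limma). Without centring it was -0.10, with an adjusted p of 0.59. Psma2 fell from 2.04 and 2.05 to 1.25 and 1.61, a difference of -0.53 (SE 0.12, adjusted p = 0.0038, limma). The call at Psma2 was lost without reactivated replicate 1 (-0.34, adjusted p = 0.118) and with quantile normalization (-0.27, adjusted p = 0.139). In none of these genes did the quiescent and reactivated libraries overlap.

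Psmb1 stood at 1.27 and 1.38 in quiescent NSPCs, 1.36 and 1.19 in activated NSPCs and 0.891 and 0.951 in reactivated NSPCs. Reactivated NSPCs were below both other states, with log2 differences of -0.52 against quiescent (SE 0.14, adjusted p = 0.0092, limma) and -0.46 against activated NSPCs (SE 0.14, adjusted p = 0.029, limma). In activated replicate 1 the highest peak was at an inner TSS, and with merged sites the difference from activated NSPCs was -0.29 with an adjusted p of 0.171. That call was also lost by pileup (-0.48, adjusted p = 0.077) and without activated replicate 1 or either reactivated library (adjusted p between 0.122 and 0.208), and the call against quiescent NSPCs without quiescent replicate 2 (0.066) or reactivated replicate 1 (0.094). Psmb2 stood at 1.54 and 1.82 in quiescent and 1.34 and 1.05 in reactivated NSPCs, a difference of -0.50 (SE 0.14, adjusted p = 0.011, limma). By pileup it was -1.12 (adjusted p = 0.00026). The call by fold enrichment was lost without quiescent replicate 2 (-0.38, adjusted p = 0.114), without reactivated replicate 2 (-0.32, adjusted p = 0.192) and with quantile normalization (-0.34, adjusted p = 0.077). Without centring, Psma2, Psmb1 and Psmb2 were slightly higher in reactivated NSPCs and not called. In all, 26 of the 46 genes were then called higher than in activated NSPCs and 32 higher than in quiescent NSPCs, against 53.4% and 69.4% of all genes.

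The genes that gained height had low peaks in quiescent NSPCs and the genes that lost it had high ones. Psme1, Psmb8 and Psmb4 lay below the median promoter in quiescent NSPCs, and Psmd1, Psmc6, Psma2, Psmb1 and Psmb2 lay above it. Among all genes called in this comparison, 93.2% of those higher in reactivated NSPCs lay below the median in quiescent NSPCs and 89.0% of those lower lay above it. The quiescent heights enter both quantities, so this is a description without a test.

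**Figure D2:**
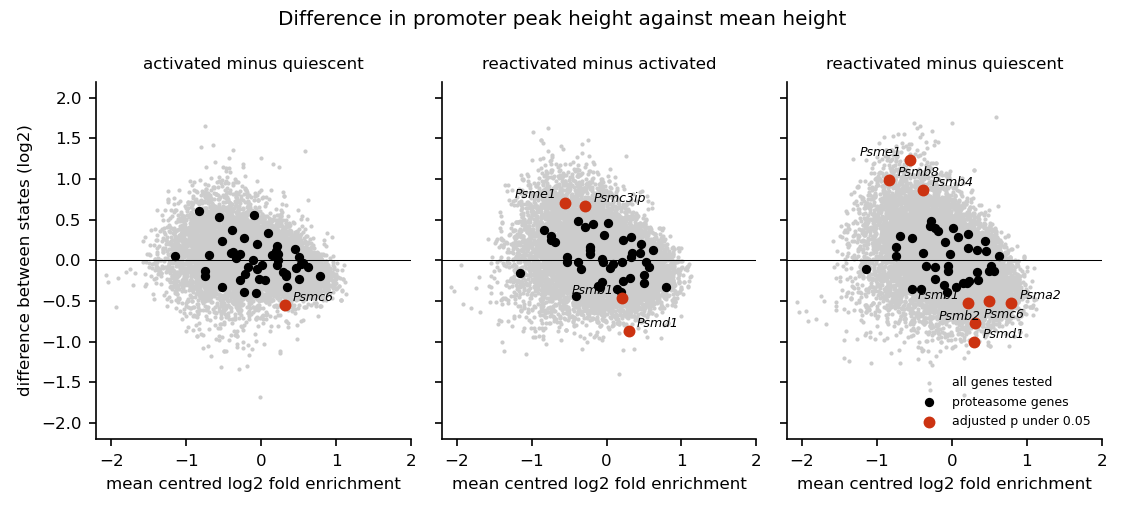
Difference in promoter peak height between states against mean height, both on the log2 scale after centring, for all 11331 genes (grey) and the 46 proteasome genes (black, or red where the adjusted p was under 0.05). The genes called number 1, 4 and 8 from left to right.

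The local background under the peaks differed between libraries. Its median at the proteasome genes, in reads, was 6.87 and 12.1 for quiescent, 7.21 and 6.18 for activated and 10.01 and 9.45 for reactivated NSPCs. It was higher in both reactivated than in both activated libraries, and the quiescent libraries lay on either side of the reactivated ones. Fold enrichment divides by this background and the pileup does not. The pileup was a whole number within 0.05 at all 276 peaks and ranged from 20 to 290. By pileup, 0, 5 and 14 of 46 genes were called in the 3 comparisons, against 4.09%, 8.47% and 17.8% of all genes. The 5 were all lower (4.34% of all genes lower, 4.13% higher), and of the 14, 2 were higher and 12 lower (8.34% and 9.45% of all genes). The part of the background in the height differences was not tested.

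**Figure D3:**
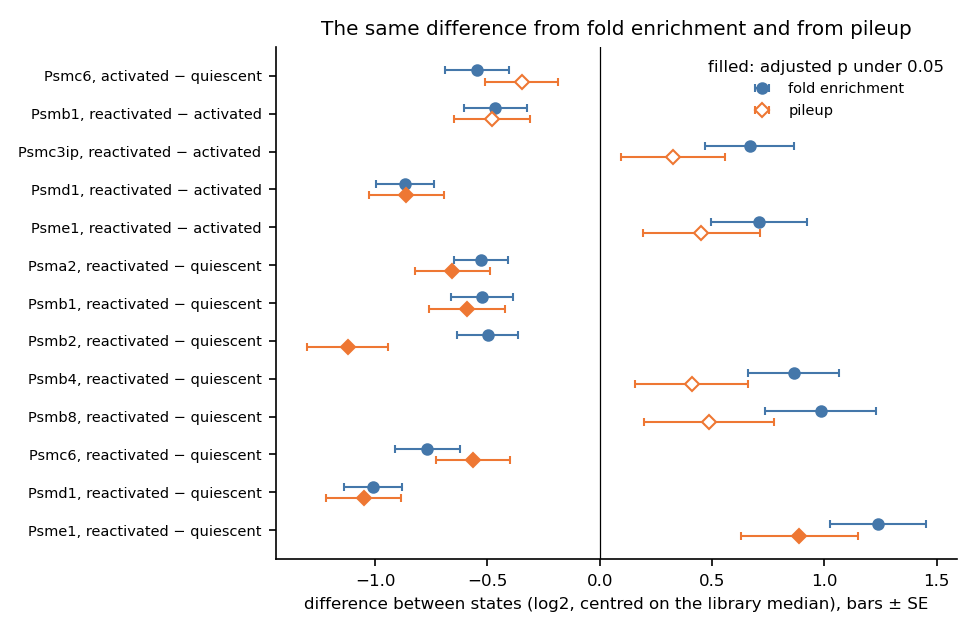
Log2 difference between states, centred on the library median, at every gene and comparison called by fold enrichment (circles) and the same by pileup (diamonds), with bars of 1 SE. Filled symbols have an adjusted p under 0.05. Psmd1 was at -1.01 and -1.05 against quiescent NSPCs, whereas Psmb4 and Psmb8 were called by fold enrichment alone.

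H3K4me3 was high at proteasome promoters in both states. Fold enrichment ranged from 10.3 to 78.2 with a median of 48.7 in quiescent NSPCs, and from 12.1 to 66.9 with a median of 46.8 in activated NSPCs. The median proteasome gene had a percentile of 86.5 and 87.6 within the lists, against 67.2 and 65.3 for all promoters with a peak. The highest was Psma7, an α-ring subunit, at 78.2 and 66.9. The lowest was Psmb8, at 10.3 and 12.1, which also had the second lowest ATAC-seq percentile.

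With 1 library per state there was no test of H3K4me3, and a difference of 1.5-fold after centring was counted. It was exceeded by 1 of 46 genes in the direction of activated NSPCs, against 1.75% of all genes, and by 0 in the direction of quiescent NSPCs, against 2.66%. The gene was Psma4, an α-ring subunit, at 43.4 in quiescent and 61.1 in activated NSPCs, a log2 difference of 0.61 after centring. Without centring its difference was 0.49, short of the threshold, and the genes past it were Psmg1 and Psmb10, both at -0.61 and lower in activated NSPCs. After centring, the next highest differences were at Psmd8 (0.47) and Psmd3 (0.36), both non-ATPase subunits.

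The lowest differences after centring were at Psmg1 (-0.49), Psmb10 (-0.49) and Psmc3ip (-0.39). H3K4me3 at Psmg1 was 46.5 in quiescent and 30.5 in activated NSPCs, while its ATAC-seq height was greater in activated NSPCs. At Psmb10 it was 44.4 and 29.2, and at Psmc3ip 43.3 and 30.4. At Psmc6 it was 50.1 and 37.1, and there the ATAC-seq height was lower in activated NSPCs too. The median difference over the 46 genes was -0.01.

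**Figure D4:**
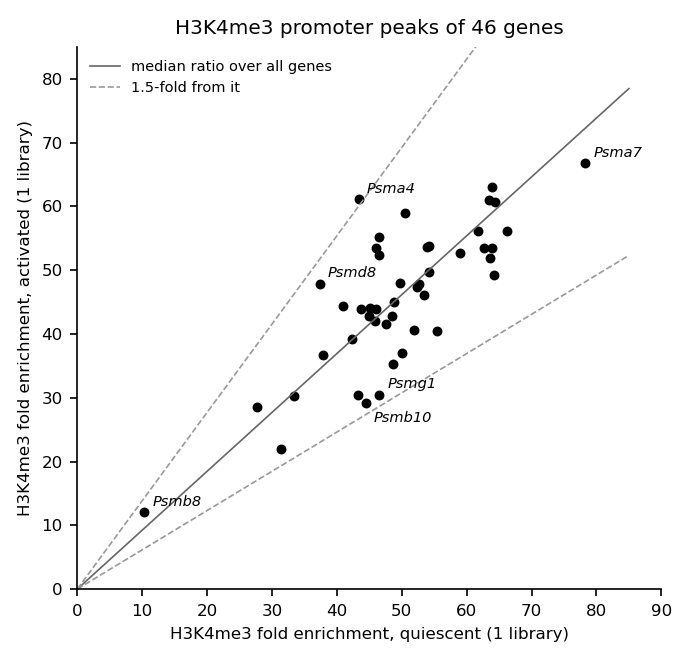
H3K4me3 fold enrichment of the 46 genes in quiescent (x) and activated (y) NSPCs, 1 library each. The solid line is the median ratio over all genes and the dashed lines lie 1.5-fold from it. Psma4 is the 1 gene past a dashed line.

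Peaks of the 6 libraries were merged into 69 sites between 1 and 10 kb from the nearest TSS of a proteasome gene. The 69 include 19 in the promoter window of another coding gene, whereas the shares over all sites leave out every coding promoter. Peaks from both quiescent and activated NSPCs, 1 library of each at the least, made a site shared. This held for 26 of 69 (37.7%), against 26.6% of all sites near coding genes. Among the 50 sites away from every coding promoter it held for 19 (38.0%). Among sites with a −log10 q of at least 10 it held for 9 of 42 (21.4%), and for 5 of 30 (16.7%) away from every coding promoter, against 22.6% of all sites, so the sign of the contrast turned. Both libraries of quiescent NSPCs and neither of activated NSPCs had a peak at 3 sites (6.98% of all sites), and the reverse held at 2 (4.53%), with 1 of each away from every coding promoter. The 3 sites lay near Psmd1, Psmd3 and Psme2, and the 2 near Psma7 and Psme2.

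At the quiescent-specific site near Psmd3 (chr11:98694328-98694677) the fold enrichment was 5.20 and 2.68 in quiescent NSPCs, and no reactivated library had a peak. At the activated-specific site near Psma7 (chr2:180032874-180033363) it was 4.74 and 5.31 in activated and 3.55 and 4.52 in reactivated NSPCs. A further 29 sites (42.0%) had a peak in reactivated libraries alone, against 37.2% of all sites. Up to 25 kb from a TSS the share was 53 of 169 (31.4%) against 38.2%, and with a −log10 q of at least 10 it was 20 of 42 (47.6%) against 48.4%, so the sign of the contrast turned. The reactivated lists were the longest.

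Proteasome genes of other names were open as well. The list of subunits, associated enzymes and assembly factors, from Adrm1 to Zfand5, had 11 genes in the annotation, all with a peak in all 6 libraries and H3K4me3 in both states. In reactivated against quiescent NSPCs, 0 of 11 were higher and 6 lower, with a median of -0.38, while 13.3% of all genes were called higher and 18.0% lower. In reactivated against activated NSPCs, 0 were higher and 2 lower (8.21% and 8.81% of all genes), and in activated against quiescent NSPCs 0 of 11 were called by limma (2.74%), with 3 at an unadjusted p under 0.05, as had 18.5% of all genes. Adrm1, a ubiquitin receptor of the cap, was at -0.55 (SE 0.12, adjusted p = 0.0028, limma) and Sem1, a small cap subunit, at -0.56 (SE 0.13, adjusted p = 0.0052, limma). Sem1 lost its call without reactivated replicate 2, at -0.47. Uchl5, a deubiquitinase that binds Adrm1, was at -0.63 (SE 0.13, adjusted p = 0.0016, limma). The direction of this list rests on centring: without it the median was 0.28, 4 of 11 were called higher and 0 lower (69.4% of all genes higher), and Adrm1, Sem1 and Uchl5 were at 0.12, 0.11 and 0.031 and not called. By pileup 3 of 11 were called, all lower (8.34% of all genes higher and 9.45% lower), and Uchl5 was at -0.17 (adjusted p = 0.512, limma).

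The list of proteasome transcription and ubiquitin supply had 16 genes, all with a peak in all 6 libraries. Activated against quiescent NSPCs gave 1 lower gene, Uba6, an enzyme that activates ubiquitin, at -0.56 (SE 0.14, adjusted p = 0.045, limma), while 1.35% of all genes were lower. The call at Uba6 was lost without centring (-0.40, adjusted p = 0.204), with quantile normalization (0.128) and without any library but activated replicate 2 (0.077 to 0.216). Reactivated against activated NSPCs gave 1 higher and 3 lower (8.21% and 8.81% of all genes), the higher one being Ubqln1, a shuttle of ubiquitinated proteins, at 0.57 (SE 0.18, adjusted p = 0.034, limma). The call at Ubqln1 was lost by pileup (0.49, adjusted p = 0.163) and without either activated or either reactivated library (0.065 to 0.358). Reactivated against quiescent NSPCs gave 0 higher and 6 lower (13.3% and 18.0% of all genes). Among the 6 were Vcp, the segregase that extracts ubiquitinated proteins, at -0.56 (SE 0.14, adjusted p = 0.0064, limma) and Ddi2, the protease that activates Nfe2l1, at -0.60 (SE 0.16, adjusted p = 0.0081, limma). Vcp lost its call by pileup (-0.38, adjusted p = 0.083, limma) and without reactivated replicate 1 (-0.53). Ddi2 lost its call without quiescent replicate 1 (-0.47) and without reactivated replicate 1 (-0.61) or 2 (-0.59), and by pileup it was at -0.89 (adjusted p = 0.0057, limma). Without centring the median of this list was 0.34, 6 of 16 were called higher and 0 lower (69.4% of all genes higher), and Vcp and Ddi2 were at 0.10 and 0.062 and not called. By pileup 2 of 16 were called, both lower, against 8.34% of all genes called higher and 9.45% called lower. Nfe2l1, the transcription factor of proteasome genes, was at -0.34 (SE 0.14, adjusted p = 0.061, limma) in reactivated against quiescent NSPCs. Nfe2l2 was among the 6 lower genes, at -0.55 (SE 0.15, adjusted p = 0.010, limma). By pileup Nfe2l2 was at -0.10 (adjusted p = 0.692, limma), and without centring it was at 0.12 and not called.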

How the data were processed

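ATAC-seq and H3K4me3 ChIP-seq peak lists were analysed, 1 per library; the input libraries were not analysed here. Per the labels and methods, the authors trimmed reads with Trim Galore 0.4.0, aligned them to mm10 with Bowtie2 2.2.5, marked duplicates with Picard 1.88, removed them with SAMtools 1.3.1 and called peaks with MACS, per library for ATAC-seq and as broad peaks against input for H3K4me3. Reactivated reads were downsampled by the authors. The deposited fold enrichment is a ratio of pileup to local background, without scaling between lists. The −log10 p-values and −log10 q-values in the deposited lists grow with depth, and the deposited score repeats the q-value and was not used. Read totals were not used here, so depth is known only from the pileups.

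The highest promoter peak of each gene was used. Heights at genes with a peak in all 6 libraries were compared with limma 3.58.1 in R 4.3.3 (trend, all states in 1 fit, Benjamini-Hochberg over all 11331 genes). Pileups were solved from the MACS definitions of fold enrichment and p. Other steps used Python 3.11.15, pandas 2.3.3 and scipy 1.17.1. The promoter lookup, the pileups, the fit, the site classes and the motif search were tested on simulated data. Libraries with the same replicate number showed no shared deviation in peak height, and the main fit did not pair them. Named genes were those without a peak, those called, the catalytic subunits, the 5 highest and 5 lowest peaks and the 3 largest and 3 smallest H3K4me3 differences. Distal sites, sequences and listed genes were named after their values were seen. The members and lists were chosen with earlier results of these data known. Alternatives varied scaling, filters, windows, starts, the measure and the libraries. Where 1 library was left out, its state kept 1 library and the spread came from the other states.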

Additional observations from a re-analysis of the deposited data

How the results depend on the processing

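The count of 46 open genes was 40 with a −log10 q of at least 10, 41 with the outermost TSS alone and 45 or 46 otherwise. Leaving out 1 library could not change it, because no gene had a peak in only some libraries. Genes called between activated and quiescent NSPCs numbered 0 in place of 1 without centring, with quantile normalization, with a peak in at least 4 of 6 libraries, with a −log10 q of at least 10, by pileup and without each library (0 to 0). Between reactivated and activated NSPCs the 4 became 26 without centring, all higher (53.4% of all genes), and 1 to 8 without each library: 8 without activated replicate 1 and 1 without either reactivated library. Between reactivated and quiescent NSPCs the 8 became 32 without centring, all higher (69.4% of all genes), 14 by pileup and 4 to 11 without each library, with 4 without reactivated replicate 1. Without centring, the signs of Psma2 (0.13), Psmb1 (0.14 against quiescent and 0.039 against activated NSPCs) and Psmb2 (0.16) reversed. H3K4me3 differences past the threshold numbered 2 without centring, both lower in activated NSPCs and neither of them Psma4, and 0 at 2-fold. The share of shared distal sites was 38.0% away from every coding promoter, a count added after seeing the data, and 21.4% with a −log10 q of at least 10, against 22.6% of all sites. A replicate block gave 1, 4 and 9 genes called. The deviations of libraries with the same number correlated at 0.002, 0.034 and -0.021 over 11331 genes, so no shared deviation in peak height was seen. Whether libraries with the same number were prepared together cannot be read from this. Of 178 refits of the 13 calls, 136 kept the call, 38 lost it with the same direction and 4 reversed. A replicate block, or leaving out a library of the state outside the comparison, kept the estimate. Such refits could move a call only through the SE and the adjustment, so the pooled counts are no measure of stability. At Psmb1, reactivated minus activated was -0.46 in the main fit, with the block and without either quiescent library. The cause of the lost and reversed calls was not tested. With 2 libraries per state, the called difference nearest to 0 among the 46 genes was -0.46, at Psmb1. Alternatives for the 2 other gene lists were chosen after seeing the data. For proteasome genes of other names, calls between reactivated and quiescent NSPCs numbered 6, 4 without centring, 3 by pileup and 3 to 7 without each library. Between reactivated and activated NSPCs they numbered 2, 4 without centring, 3 with quantile normalization, 1 by pileup and 0 to 1 without each library. Between activated and quiescent NSPCs they numbered 0 in each. For transcription and ubiquitin supply the first was 6, with 4 under quantile normalization, 2 by pileup and 1 to 8 without each library, the second was 4, with 3 by pileup and 0 to 4, and the third was 1, with 0 without centring or under quantile normalization and 0 to 1. Without centring, the signs reversed against quiescent NSPCs at Adrm1 (0.117), Sem1 (0.106), Uchl5 (0.031), Vcp (0.102), Ddi2 (0.062) and Nfe2l2 (0.117). Against activated NSPCs they reversed at Adrm1 (0.092) and Sem1 (0.108).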

Other observations

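Psmd10, a chaperone of the cap that the symbol rule left out because it is X-linked, had an ATAC-seq promoter peak in all 6 libraries. Its fold enrichment was 11.04 and 8.10 in quiescent NSPCs, 10.6 and 7.56 in activated NSPCs and 15.1 and 17.0 in reactivated NSPCs. Its H3K4me3 fold enrichment was 23.2 in quiescent and 20.9 in activated NSPCs, below the median of the autosomal proteasome genes. The 4 pseudogenes named for Psmb5, Psmb6 and Psmb7 had no ATAC-seq or H3K4me3 promoter peak in any library. At Psmb7, a site 1931 bp from a TSS (chr2:38646018-38646375) was higher than the promoter peak of the same gene in all 6 libraries. The fold enrichment of this site was 10.5 and 5.81 in quiescent NSPCs, 7.75 and 7.32 in activated NSPCs and 10.4 and 8.79 in reactivated NSPCs, and that of the promoter peak was 5.10 and 4.13, 5.12 and 4.27, and 8.11 and 8.18.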
